A study of Mus musculus with 6 samples.

Results

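The transcripts examined here were those of the Period genes Per1, Per2 and Per3 and the Cryptochrome genes Cry1 and Cry2, 5 of the 27179 genes in the count data, chosen by name and read from the rows with their Entrez Gene IDs. They were measured by RNA-seq in 3 immortalized mouse embryonic fibroblast (MEF) lines from the C57BL/6 strain, with 2 libraries per line. All 3 lines carried per1-/- and per2-/- mutations. The line called Cry/Per_KO also lacked Cry1 and Cry2, the line called Per/Nr1d_KO also lacked Nr1d1 and Nr1d2 and kept its Cry genes, and the line called Cry/Per/Nr1d_KO lacked all 6 genes. Per3 was not listed as mutated in any line. The Cry/Per/Nr1d_KO line came from a colony isolated after CRISPR mutation of Nr1d1 and Nr1d2 in Cry/Per_KO cells, so it stands for 1 clone. The Per/Nr1d_KO line was made separately in an earlier study, with the same guide RNA sequences for Nr1d1 and Nr1d2. Each genotype was 1 line, so effects of genotype and of line cannot be told apart. All cells grew in DMEM with 10% fetal bovine serum.

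For 2 pairs of libraries, the genotype label and the file name of the counts gave different lines. The pair with the label Cry/Per_KO was deposited under the name of the sextuple knockout, and the pair with the label Cry/Per/Nr1d_KO under that of the quadruple knockout. The sample titles gave the same line as the genotype for the Cry/Per_KO pair and were garbled for the pair with the label Cry/Per/Nr1d_KO, ending in PN_KO. For the Per/Nr1d_KO libraries, title, genotype and file name gave the same line. Groups follow the genotype labels below, and these pairs are written as Cry/Per_KO-labelled and Cry/Per/Nr1d_KO-labelled to mark that their identity is in doubt. An exchange of these labels turns every difference between them around and makes the other pair the reference for Per/Nr1d_KO, so Per/Nr1d_KO is set against both pairs.

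Per and Cry genes are both targets and inhibitors of the transcription factor CLOCK-BMAL1, which acts through E-boxes. PER and CRY proteins can enter the nucleus together, CRY blocks the activity of CLOCK-BMAL1 on DNA, and PER with CRY removes the heterodimer from it. NR1D1 and NR1D2 are nuclear receptors that repress genes with RORE sites, Arntl (which encodes BMAL1) and Cry1 among them. A mutated Per or Cry allele can still be transcribed, and its RNA level says nothing of the protein. The counts covered whole genes, so which exons the reads came from is not known.

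Promoter windows of RefSeq (GRCm38.p6, the assembly of mm10), from 250 bases before to 50 after a gene's start, were matched to 4 members. No window was available for Per2. They are shown for the words that CLOCK-BMAL1 and the PAR bZIP factors are known to bind. The capitals mark every match, on either strand, to CACGTG (the canonical E-box), CACGTT or AACGTG (an E-box-like word), TGACGTCA (the cAMP response element), TTATGTAA (a D-box) and AGGTCA (the hexamer of nuclear receptors such as NR1D and ROR). The windows lie at chr10:85185005-85185304 on the minus strand (Cry1), chr2:92434020-92434319 on the minus strand (Cry2), chr11:69098699-69098998 on the plus strand (Per1, the first of 2 windows) and chr4:151044616-151044915 on the minus strand (Per3), each read along the strand of its gene.
Cry1: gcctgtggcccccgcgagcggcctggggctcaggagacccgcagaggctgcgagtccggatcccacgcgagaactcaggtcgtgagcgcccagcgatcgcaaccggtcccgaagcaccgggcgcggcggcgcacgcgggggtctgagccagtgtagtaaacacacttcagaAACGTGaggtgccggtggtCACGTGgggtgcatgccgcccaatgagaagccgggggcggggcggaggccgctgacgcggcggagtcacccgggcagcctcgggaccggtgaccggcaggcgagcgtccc
Cry2: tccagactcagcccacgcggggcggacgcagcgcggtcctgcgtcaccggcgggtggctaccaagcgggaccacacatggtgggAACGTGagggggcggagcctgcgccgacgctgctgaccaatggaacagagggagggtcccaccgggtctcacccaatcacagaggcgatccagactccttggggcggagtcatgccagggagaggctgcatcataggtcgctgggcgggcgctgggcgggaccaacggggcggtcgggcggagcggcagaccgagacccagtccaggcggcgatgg
Per1: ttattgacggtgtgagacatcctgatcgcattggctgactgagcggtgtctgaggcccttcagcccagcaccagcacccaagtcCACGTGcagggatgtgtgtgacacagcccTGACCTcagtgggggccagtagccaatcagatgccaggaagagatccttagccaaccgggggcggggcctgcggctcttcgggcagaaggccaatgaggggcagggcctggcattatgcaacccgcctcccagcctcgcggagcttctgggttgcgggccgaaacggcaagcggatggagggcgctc
Per3: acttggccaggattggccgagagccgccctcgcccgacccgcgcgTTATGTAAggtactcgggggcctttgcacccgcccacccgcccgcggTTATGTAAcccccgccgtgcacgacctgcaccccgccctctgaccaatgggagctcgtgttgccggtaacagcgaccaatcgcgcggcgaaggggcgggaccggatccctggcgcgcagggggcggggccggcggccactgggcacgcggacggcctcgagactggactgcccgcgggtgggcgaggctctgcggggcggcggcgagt

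The canonical E-box was present in the windows of Cry1, where it began 60 bases before the start, and Per1, where it began 166 bases before it. Of all 32851 promoter windows of this length, 7.15% held this word. The E-box-like word was found in Cry1 (79 bases before the start) and in Cry2 (166 bases before it), against 4.68% of all windows. Per3 held 2 copies of the D-box on its own strand, which began 205 and 158 bases before the start, and 0.938% of all windows held at least 1. The hexamer, present in 16.3% of all windows, occurred once among the windows searched, in the first Per1 window on the opposite strand, 137 bases before the start. Of the 11949 windows of genes tested for expression, 10.1% held the canonical E-box and 5.36% the E-box-like word. The D-box was in 0.435% of them and the hexamer in 12%. The second Per1 window, at chr11:69099902-69100201, held none of these words and is not printed. No match says only that these letters were not in the window, and a match is not a bound site.

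The genes listed as mutated were still transcribed in every library. The lowest count of any member was 792, for Per2 in the first Per/Nr1d_KO library, out of 53764390 counts in that library. Library totals ran from 53764390 to 85927236 counts. Values given as normalized counts are counts scaled with TMM factors to the mean effective library size. Of the 8 fibroblast markers, 7 were above the expression limit used for testing, a mean of 100 normalized counts, and Thy1 reached at most 6.21. The summed level of the fibroblast markers was 837028 to 861437 normalized counts in the Cry/Per_KO-labelled pair, 886014 to 933632 in the Cry/Per/Nr1d_KO-labelled pair and 1703788 to 1722988 in Per/Nr1d_KO. The sum was carried by Col1a1, Col1a2, Fn1 and Vim, and its members differed in direction. Col3a1 had 42810 to 43797 normalized counts in Per/Nr1d_KO and at most 836 in the other libraries, while Pdgfra had 4140 to 4148 in Per/Nr1d_KO and between 9673 and 12743 elsewhere. Pdgfrb and Vim were also lowest in Per/Nr1d_KO, and Col1a1, Col1a2 and Fn1 highest. None of the epithelial, endothelial, leukocyte, muscle or pluripotency markers passed the limit, and the summed levels of these lists lay between 11 and 138 normalized counts, with the T cell marker Cd3e at 0 in each library. The epithelial sum was 134 to 138 in Per/Nr1d_KO, 35 to 61 in the Cry/Per/Nr1d_KO-labelled pair and 18 to 24 in the Cry/Per_KO-labelled pair, and was thus highest where the members were lowest. Most of it in Per/Nr1d_KO was Cdh1 (100 to 110), while Epcam (18.1 to 26.6 there) reached 33.3 in the Cry/Per/Nr1d_KO-labelled pair. The muscle sum had the same order of lines (93 to 110, 77 to 83 and 26 to 30). The pluripotency sum had the reverse order (11 to 16, 24 to 27 and 37 to 43). The endothelial sum had neither order, with 119 to 120 in the Cry/Per/Nr1d_KO-labelled pair. It was 77 to 90 in Per/Nr1d_KO and 40 to 51 in the Cry/Per_KO-labelled pair. Leukocyte sums had no clear order, with 49 to 51 (Per/Nr1d_KO), 51 to 72 (Cry/Per/Nr1d_KO-labelled) and 45 to 73 (Cry/Per_KO-labelled). Whether the differences in fibroblast and other markers had a part in the results was not tested. In such bulk RNA, fewer cells of a type and less RNA per cell cannot be told apart.

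**Figure D1:**
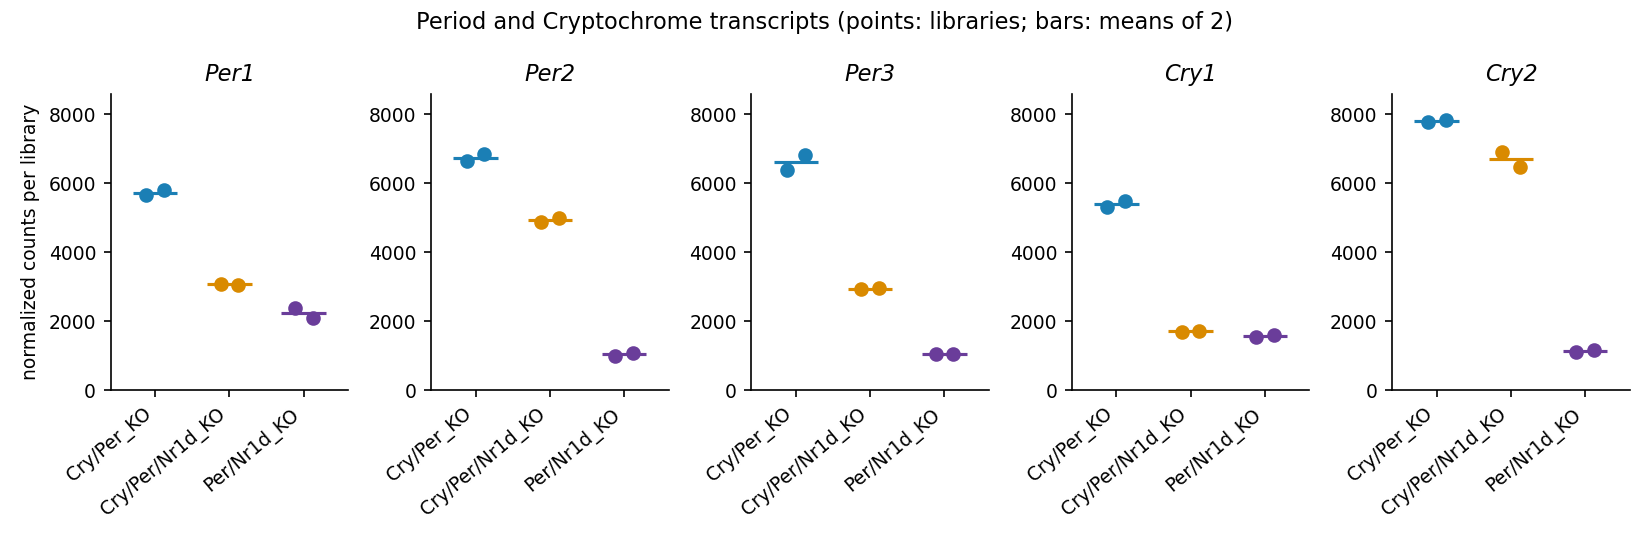
Normalized counts of the 5 genes (vertical axis, linear, from 0) in each library (points) of the 3 lines named by genotype label, with bars at the means of 2 libraries. Per/Nr1d_KO libraries are the lowest for each gene, between 1004 (Per2) and 2379 (Per1), and the Cry/Per_KO-labelled pair is the highest, between 5323 (Cry1) and 7824 (Cry2).

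Cry1 and Cry2 encode the CRY repressors, and Per/Nr1d_KO was the only line labelled as keeping them. Cry2 had 1107 and 1169 normalized counts in the Per/Nr1d_KO libraries, 6908 and 6476 in the Cry/Per/Nr1d_KO-labelled pair, and 7783 and 7824 in the Cry/Per_KO-labelled pair. The unmutated gene was thus at the lowest level, and no library of 1 line overlapped with those of another. Cry2 fell 5.87-fold in Per/Nr1d_KO against the Cry/Per/Nr1d_KO-labelled pair (log2 fold change -2.55, standard error 0.055, edgeR adjusted p = 1.8e-15) and 6.84-fold against the Cry/Per_KO-labelled pair (-2.77, standard error 0.055, edgeR adjusted p = 5.8e-16). The latter fall was number 284 from the lowest of 11934 genes tested. Between the lines labelled as lacking it, Cry2 was at 1.17-fold in the Cry/Per_KO-labelled pair over the other pair (log2 fold change 0.22, edgeR adjusted p = 0.00071). This difference was larger than the spread between libraries but inside the limit of 1.75-fold set for a call.

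Cry1 had the same order of lines with other steps between them. It had 1535 and 1592 normalized counts in Per/Nr1d_KO, 1698 and 1724 in the Cry/Per/Nr1d_KO-labelled pair, and 5323 and 5478 in the Cry/Per_KO-labelled pair. The first groups were close and the third stood apart. Cry1 rose 3.16-fold in the Cry/Per_KO-labelled pair over the Cry/Per/Nr1d_KO-labelled pair (log2 fold change 1.66, standard error 0.053, edgeR adjusted p = 9.6e-13), which is a fall of the same size with the labels exchanged. In Per/Nr1d_KO, Cry1 had a log2 fold change of -0.13 against the Cry/Per/Nr1d_KO-labelled pair (standard error 0.055, edgeR adjusted p = 0.046, not called) and -1.79 against the Cry/Per_KO-labelled pair (standard error 0.053, edgeR adjusted p = 7.0e-14). Over 14 other ways of fitting, the adjusted p of the small difference ranged from 0.015 to 0.18. Which of these values is the one against the sextuple knockout depends on which pair is that line. By genotype label it is the log2 fold change of -0.13, and by file name that of -1.79.

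The paralogs were compared per kilobase of exon, since Cry1 had 3026 and Cry2 4342 exon bases in the annotation. On this scale Cry1 made up 66.6% and 66.1% of the Cryptochrome level in the Per/Nr1d_KO libraries. The share was 49.5% and 50.1% in the Cry/Per_KO-labelled pair, where both paralogs were about equal on this scale but not in counts. In the Cry/Per/Nr1d_KO-labelled pair it was 26.1% and 27.6%, so that Cry2 stood 2.73-fold above Cry1 (SD 0.15, n = 2). Per/Nr1d_KO cells, with Cry1 at 1.97-fold over Cry2 (SD 0.026, n = 2), were the line in which Cry1 predominated. In the other pairs both genes were listed as mutated. Which exons their reads came from is not known, so altered alleles and altered proportions cannot be told apart. Shares did not overlap between any pair of lines. With 2 libraries against 2, an exact two-sided permutation test cannot go below p = 0.333, and the shares were not tested in another way. In normalized counts per kilobase (mean ± SD of 2 libraries), the sum of both genes was 779 ± 23.6 for Per/Nr1d_KO, 2107 ± 64.4 for the Cry/Per/Nr1d_KO-labelled pair and 3582 ± 42.8 for the Cry/Per_KO-labelled pair.

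Per1 and Per2 encode PER proteins that can enter the nucleus with CRY, and both genes were listed as mutated in each line. Per2 had 1004 and 1089 normalized counts in Per/Nr1d_KO, 4866 and 4999 in the Cry/Per/Nr1d_KO-labelled pair, and 6633 and 6838 in the Cry/Per_KO-labelled pair. Like Cry2, it was far lower in Per/Nr1d_KO than in either other pair, which were closer to each other. Per2 fell 4.69-fold in Per/Nr1d_KO against the Cry/Per/Nr1d_KO-labelled pair (log2 fold change -2.23, standard error 0.056, edgeR adjusted p = 1.0e-14) and 6.41-fold against the Cry/Per_KO-labelled pair (-2.68, standard error 0.056, edgeR adjusted p = 9.5e-16). The difference between the last pairs was 1.37-fold (log2 fold change 0.45, edgeR adjusted p = 7.9e-07, not called).

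Per1, the member whose promoter is known for rapid induction by serum, glucocorticoid and cAMP signals, varied least. It had 2379 and 2106 normalized counts in Per/Nr1d_KO, 3066 and 3062 in the Cry/Per/Nr1d_KO-labelled pair, and 5644 and 5793 in the Cry/Per_KO-labelled pair. The Per/Nr1d_KO libraries differed from each other by more than those of the other lines, and the groups still did not overlap. Its highest library was 2.75-fold over its lowest, against 6.80-fold for Per2, 6.55-fold for Per3, 3.57-fold for Cry1 and 7.06-fold for Cry2. Per1 rose 1.87-fold in the Cry/Per_KO-labelled pair over the other knockout of Cry and Per (log2 fold change 0.90, standard error 0.056, edgeR adjusted p = 1.5e-09), a fall with the labels exchanged. In Per/Nr1d_KO it was lower, with a log2 fold change of -0.46 against the Cry/Per/Nr1d_KO-labelled pair (edgeR adjusted p = 4.2e-06, not called) and of -1.36 against the Cry/Per_KO-labelled pair (edgeR adjusted p = 5.8e-12, called).

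Per3, the Period gene that the oscillator can run without, had no mutation listed in any line. It had 1062 and 1038 normalized counts in Per/Nr1d_KO, 2930 and 2950 in the Cry/Per/Nr1d_KO-labelled pair, and 6395 and 6810 in the Cry/Per_KO-labelled pair. The steps between lines were larger than the spread of each pair, and no libraries overlapped. Per3 fell 2.80-fold in Per/Nr1d_KO against the Cry/Per/Nr1d_KO-labelled pair (log2 fold change -1.49, standard error 0.056, edgeR adjusted p = 1.6e-12) and 6.30-fold against the Cry/Per_KO-labelled pair (-2.65, standard error 0.055, edgeR adjusted p = 1.0e-15). Between the lines without Cry, Per3 rose 2.25-fold in the Cry/Per_KO-labelled pair (log2 fold change 1.17, standard error 0.050, edgeR adjusted p = 2.6e-11), which again turns into a fall with exchanged labels. Per3, with no listed mutation, and the mutated Per1 and Per2 genes thus had the same order of lines.

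**Figure D2:**
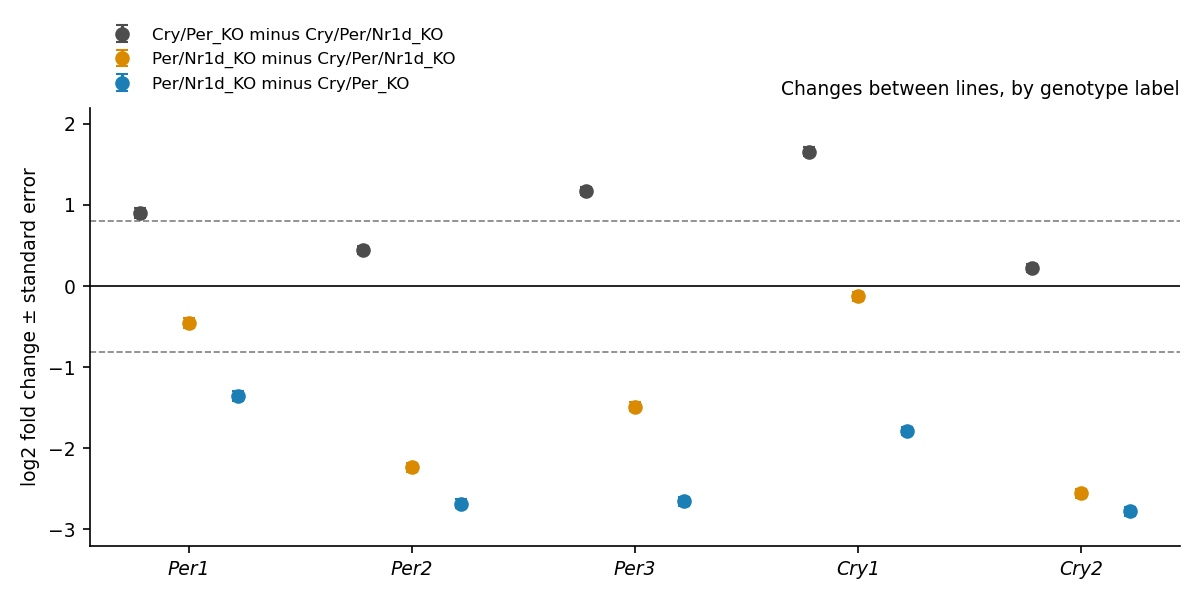
Log2 fold change (vertical axis) with its standard error, mostly smaller than the symbols, for each gene in the 3 comparisons of lines named by genotype label. The dashed lines mark the limit of 1.75-fold, which Cry1 (-0.13) and Per1 (-0.46) did not pass in Per/Nr1d_KO minus Cry/Per/Nr1d_KO.

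Of the 5 members, 3 (Per2, Per3 and Cry2) were called lower in Per/Nr1d_KO against the Cry/Per/Nr1d_KO-labelled pair, where 9.35% of the 11934 genes tested were called lower, 11.3% higher and 20.7% in either direction. Against the Cry/Per_KO-labelled pair all 5 were called lower, with 13.8% of genes tested called lower, 15.2% higher and 29.0% in either direction. Between the Cry-deficient pairs, 3 (Per1, Per3 and Cry1) were called higher in the Cry/Per_KO-labelled pair, with 7.86% of genes tested called higher, 8.95% lower and 16.8% in either direction. The members' median log2 fold changes were -1.49, -2.65 and 0.90 in this order, while those of all genes tested were 0.01, 0.03 and -0.0033. A call needed an adjusted p under 0.05 and more than 1.75-fold. On the p-value alone each member passed in each comparison, but so did 75.8%, 82.1% and 76.4% of all genes, and libraries that did not overlap were found for 87.1%, 90.4% and 86.4% of them. The comparisons share libraries and are not independent of each other.

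Per kilobase of exon, the Period genes also changed their proportions. Per1 made up 54.8% and 51.0% of the Period level in Per/Nr1d_KO, against 29.2% and 28.8% in the Cry/Per/Nr1d_KO-labelled pair and 31.3% and 30.9% in the Cry/Per_KO-labelled pair. Per2 was the most abundant Period transcript in the Cry/Per/Nr1d_KO-labelled pair, with 44.7% and 45.3%, and made up 22.3% and 25.4% in Per/Nr1d_KO. The share of Per3 was between 22.9% and 26.1% in these 4 libraries and 33.2% and 34.0% in the Cry/Per_KO-labelled pair. In the line in which Cry1 predominated over Cry2, Per1 predominated over Per2, by 2.23-fold (SD 0.32, n = 2). No Per1 share of Per/Nr1d_KO overlapped with that of another line.

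**Figure D3:**
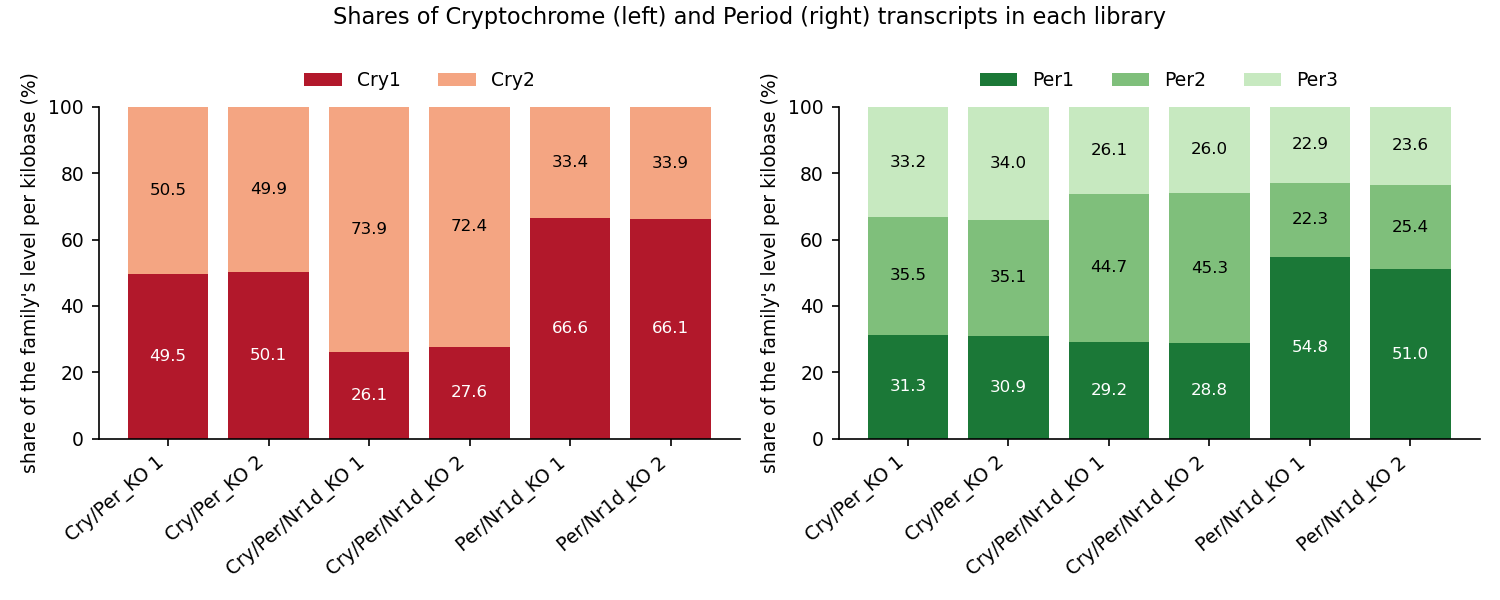
Share of each gene in the summed level per kilobase of exon (vertical axis, %) of the Cryptochrome genes (left) and Period genes (right), 1 bar per library, named by genotype label and replicate. Cry1 ranges from 26.1% to 66.6% and Per1 from 28.8% to 54.8%, both highest in Per/Nr1d_KO.

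The order of the 5 levels per kilobase differed between lines. In Per/Nr1d_KO it was Cry1 (517 ± 13.4 normalized counts per kilobase, SD, n = 2), Per1 (399 ± 34.3), Cry2 (262 ± 10.2), Per2 (179 ± 10.3) and Per3 (175 ± 2.90), and the libraries of Per2 and Per3 overlapped. In the Cry/Per/Nr1d_KO-labelled pair it was Cry2 (1541 ± 70.3), Per2 (846 ± 16.0), Cry1 (565 ± 5.87), Per1 (545 ± 0.49) and Per3 (490 ± 2.33). In the Cry/Per_KO-labelled pair it was Cry2 (1797 ± 6.63), Cry1 (1785 ± 36.1), Per2 (1155 ± 24.8), Per3 (1101 ± 49.0) and Per1 (1017 ± 18.8), and the libraries of Cry2 and Cry1 overlapped, while Per2 and Per3 were within 1.05-fold. Per kilobase of coding length some neighbours changed places. In Per/Nr1d_KO, Cry2 (623 and 658 normalized counts per coding kilobase) was then above Per1 (610 and 540) and Per3 (318 and 311) above Per2 (266 and 289). Per3 was also above Per1 in the Cry/Per/Nr1d_KO-labelled pair and above Per2 in the Cry/Per_KO-labelled pair, while Cry1 in Per/Nr1d_KO and Cry2 in the other pairs stayed the highest. Per kilobase of exon, the summed Period level was 753 ± 26.9 (Per/Nr1d_KO), 1880 ± 17.9 (Cry/Per/Nr1d_KO-labelled) and 3272 ± 92.5 (Cry/Per_KO-labelled) normalized counts per kilobase (SD, n = 2). It was 4.34-fold higher at the top than at the bottom of this order, while the Cryptochrome sum was 1.70-fold higher at the top than in the middle and there 2.70-fold higher than at the bottom. The ratio of the Cryptochrome sum to the Period sum was 1.04 ± 0.068, 1.12 ± 0.045 and 1.09 ± 0.018 (SD, n = 2) in the same order of lines. With coding length in place of exon length it was 1.29 ± 0.083, 1.58 ± 0.070 and 1.41 ± 0.027, so the likeness of this ratio across lines depended on the length used.

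The patterns of the members over the 6 libraries were compared by the root mean square (RMS) difference between log2 CPM values, each centred on the gene's mean. Cry2 and Per2 were the most alike, with 0.14, followed by Cry1 and Per1 with 0.32 and Per2 and Per3 with 0.35. The paralogs Cry1 and Cry2 were the least alike, with 0.996. Each Cryptochrome was thus nearer to a Period gene than to its own paralog. Outside the members, the nearest patterns among genes tested were those of S1pr3, a sphingosine-1-phosphate receptor gene (0.053), Mras (0.061) and the kinase gene Prkd1 (0.073) for Per2. For Per1 they were Alg9 (0.046), Tirap (0.046) and Tbc1d2b (0.054), and for Per3 they were Oaf (0.055), Lockd (0.064) and Plppr2 (0.071). For Cry1 they were Ttc12 (0.059), Snhg12 (0.064) and Dubr (0.090), and for Cry2 Il34, which encodes a ligand of the CSF1 receptor (0.065), Chd5 (0.097) and Prkd1 (0.102). With 3 lines, genes of unlike function can have such patterns.

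The other genes of the pathway were followed in 8 lists with 61 genes, of which 58 were tested. The E-box outputs, targets of CLOCK-BMAL1 outside the Per and Cry families, were mostly lower in Per/Nr1d_KO, as were the members. Of 12 genes, 8 were called lower against the Cry/Per/Nr1d_KO-labelled pair and 8 against the Cry/Per_KO-labelled pair, with medians of -1.05 and -0.94 on the log2 scale, beside 9.35% and 13.8% of all genes tested called lower. Bhlhe41, which encodes a repressor that binds E-boxes, had the lowest log2 fold changes (-4.56 and -4.93), and Hlf, a PAR bZIP factor gene, had -3.99 and -4.22. Dbp, another PAR bZIP factor gene, had 175 and 140 normalized counts in Per/Nr1d_KO, 692 and 731 in the Cry/Per/Nr1d_KO-labelled pair, and 1675 and 1760 in the Cry/Per_KO-labelled pair, the same order as each member. Ciart, which encodes the repressor CHRONO, fell as well (-2.35 and -1.84) but was lower in the Cry/Per_KO-labelled pair than in the Cry/Per/Nr1d_KO-labelled pair (log2 fold change -0.51, edgeR adjusted p = 4.8e-06, not called), opposite to the members. Usp2 (-0.64) and Wee1 (-0.24) also had negative values there, neither called. Of the 12 outputs, 2 (Nr1d1 and Dbp, log2 fold changes 1.56 and 1.27) were called higher in the Cry/Per_KO-labelled pair, beside 7.86% of all genes tested, and the median was 0.30. Nr1d1, itself mutated in the lines named Nr1d, had 9337 and 9249 normalized counts in the Cry/Per_KO-labelled pair, 3158 and 3146 in the Cry/Per/Nr1d_KO-labelled pair and 5359 and 4838 in Per/Nr1d_KO. In the latter, Nr1d1 had a log2 fold change of 0.69 against the Cry/Per/Nr1d_KO-labelled pair (not called) and fell against the other pair (-0.87). Nampt, which encodes the enzyme of NAD salvage, and Por did not pass the limits in any comparison.

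Of the 4 activator genes, 2 were called higher in Per/Nr1d_KO against the Cry/Per/Nr1d_KO-labelled pair and 1 against the Cry/Per_KO-labelled pair, beside 11.3% and 15.2% of all genes tested. Arntl rose in Per/Nr1d_KO against the Cry/Per/Nr1d_KO-labelled pair (log2 fold change 1.07, edgeR adjusted p = 1.6e-10) and had a log2 fold change of 0.17 against the Cry/Per_KO-labelled pair (edgeR adjusted p = 0.0094, not called). Npas2, a paralog of Clock, had 312 and 260 normalized counts in Per/Nr1d_KO and between 41.1 and 67.8 in the other libraries, a rise against both pairs (2.62 and 2.09). Clock had log2 fold changes of -0.40 and -0.44 in Per/Nr1d_KO, neither called. Between the Cry-deficient pairs, Arntl rose in the Cry/Per_KO-labelled pair (0.89, edgeR adjusted p = 2.4e-09), as did Cry1 above. By genotype label, these RORE genes were thus higher in the pair labelled as keeping Nr1d1 and Nr1d2, whose products are known to repress them, and by file name they were higher in the pair without them. Rora, which encodes an activator on RORE sites, also rose there (1.37, edgeR adjusted p = 8.7e-08), and each of these turns into a fall with the labels exchanged.

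Calls among the enzymes that modify PER and CRY stand beside those over all genes tested (16.8%, 20.7% and 29.0% in either direction, between the Cry-deficient pairs and then in Per/Nr1d_KO against the Cry/Per/Nr1d_KO-labelled and the Cry/Per_KO-labelled pair). Of 9 kinase and phosphatase genes, 0, 1 and 2 were called in this order (7, 7 and 8 at an unadjusted p under 0.05, and 0, 1 and 2 by DESeq2), and of 7 ubiquitin enzyme genes 1, 2 and 2. Among the kinase and phosphatase genes, Prkaa2, an AMPK catalytic subunit gene, was lower in Per/Nr1d_KO than in either pair (-1.66 and -2.46, both called), and Csnk1a1, which encodes a casein kinase 1, against the Cry/Per_KO-labelled pair (-0.83). Csnk1d and Csnk1e, the casein kinase 1 genes whose products phosphorylate PER, did not pass the limit of 1.75-fold in any comparison, with log2 fold changes between -0.37 and 0.37. Prkaa2 had 215 and 259 normalized counts in Per/Nr1d_KO, 731 and 789 in the Cry/Per/Nr1d_KO-labelled pair, and 1275 and 1361 in the Cry/Per_KO-labelled pair, and was the list gene nearest to Per3 (RMS difference 0.18), Per2 (0.24) and Cry2 (0.37). Of 7 ubiquitin enzyme genes, Mdm2 rose in Per/Nr1d_KO against both pairs (0.84 and 1.03). Fbxl21, which encodes a CRY-binding F-box protein, differed between all lines, with log2 fold changes of 2.34 (Cry/Per_KO-labelled over Cry/Per/Nr1d_KO-labelled), 1.39 and -0.95 (Per/Nr1d_KO against these in reverse order).

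The partners of PER in its nuclear complex, 11 genes that include Nono, Sfpq and Timeless, had no call in edgeR in any comparison (0 of 11) and none in DESeq2. At an unadjusted p under 0.05, 11, 4 and 9 of them differed (Cry/Per_KO-labelled minus Cry/Per/Nr1d_KO-labelled, then Per/Nr1d_KO against each in reverse order), with log2 fold changes from -0.76 to 0.72. Of all genes tested, 16.8%, 20.7% and 29.0% were called in these comparisons. At an adjusted p under 0.05, a stricter limit than the unadjusted one, 76.4%, 75.8% and 82.1% of all genes tested passed. Of 7 genes that link signals to Per1 and Per2, 1, 0 and 2 were called in these comparisons (5 in each at an unadjusted p under 0.05, and 1, 0 and 2 by DESeq2), beside 16.8%, 20.7% and 29.0% of all genes tested. Crtc2, a CREB coactivator gene, was lower in the Cry/Per_KO-labelled pair than in the Cry/Per/Nr1d_KO-labelled pair (-0.91) and higher in Per/Nr1d_KO than in the former (1.07), opposite to each member. Nr3c1, the glucocorticoid receptor gene, fell in Per/Nr1d_KO against the Cry/Per_KO-labelled pair (-0.87) and was the list gene nearest to Per1 (RMS difference 0.22). Among glucocorticoid-responsive genes, Fkbp5 (-1.38 and -1.12) and Tsc22d3 (-1.56 and -1.90) fell in Per/Nr1d_KO against both pairs, while Sgk1 rose against the Cry/Per_KO-labelled pair (0.97). Dusp1, Errfi1 and Klf9 were not called.

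**Figure D4:**
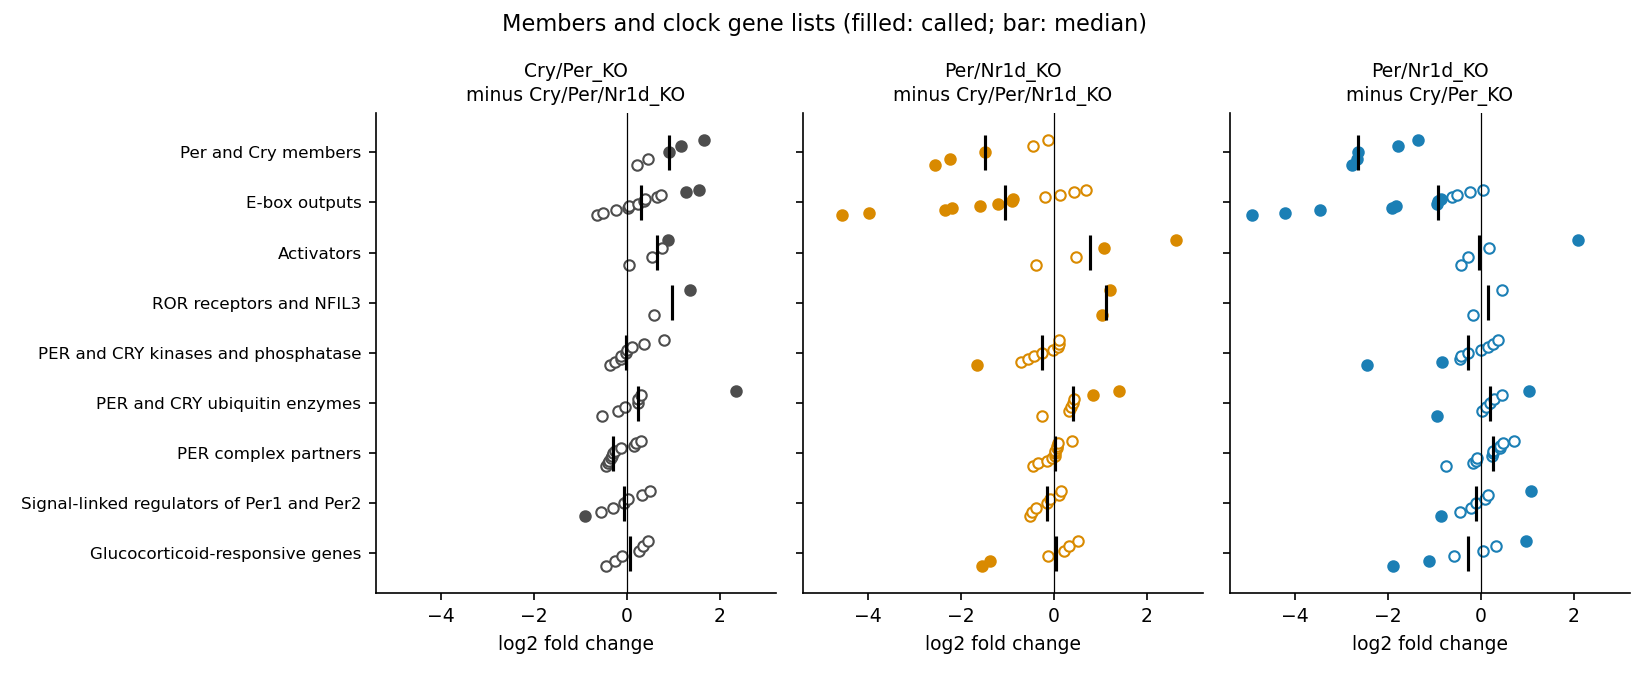
Log2 fold change (horizontal axis) of the 5 members and of the tested genes of 8 lists in the 3 comparisons of lines named by genotype label, with called genes filled, other genes open and a bar at each median. In Per/Nr1d_KO minus Cry/Per/Nr1d_KO the medians are -1.49 for the members, -1.05 for the E-box outputs and 0.02 for the PER complex partners.

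The members lie on 5 chromosomes. In GRCm38 (mm10), Per1 (Entrez Gene 18626) spans chr11:69095108-69109965, Per2 (18627) chr1:91415977-91459351, Per3 (18628) chr4:150997018-151044707, Cry1 (12952) chr10:85131700-85185054 and Cry2 (12953) chr2:92403646-92434085. The median log2 fold change of the other genes tested on a member's chromosome was between -0.19 and 0.28 in the 3 comparisons. The value furthest from 0, 0.28, was that of chromosome 1 in Per/Nr1d_KO against the Cry/Per/Nr1d_KO-labelled pair, where Per2 fell. Of the 20 tested genes around each member, 10 on either side, none fell as far as Per1, Per2 or Cry1 in Per/Nr1d_KO against the Cry/Per_KO-labelled pair. Near Per3 it was Tnfrsf9, the adjacent gene (-5.99), and near Cry2 it was Alx4 that fell further, which is named here after its values were seen. Against the Cry/Per/Nr1d_KO-labelled pair, the number of neighbours with a lower log2 fold change than the member was 2 for Per1, 1 for Per2, 2 for Per3, 6 for Cry1 and 1 for Cry2. Tnfrsf9, which encodes a receptor of the TNF family, had the order of lines of Per3 (log2 fold changes -4.13 against the Cry/Per/Nr1d_KO-labelled pair and 1.85 between the Cry-deficient pairs). The adjacent genes of Cry1, Mterf2 and Btbd11, had log2 fold changes of 1.10 and 0.24 in Per/Nr1d_KO against the Cry/Per_KO-labelled pair, where Cry1 had -1.79. The adjacent genes of Cry2 were Mapk8ip1 (0.05) and Slc35c1 (1.52), and those of Per2 were Hes6 (0.59) and Traf3ip1 (-0.11). Those of Per1 were Vamp2 (-0.87, called lower) and Cntrob (-0.61, not called), both in the direction of Per1 (-1.36).

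**Figure D5:**
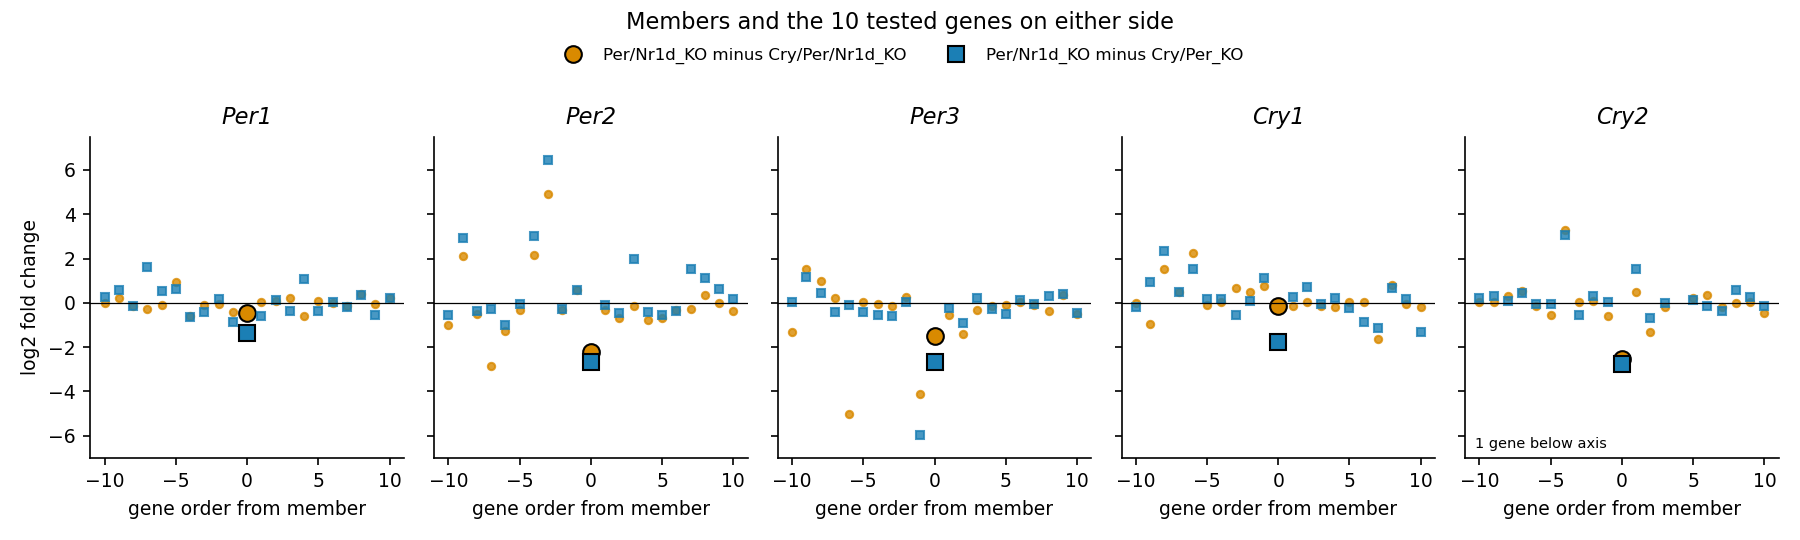
Log2 fold change (vertical axis) of each member (large symbols at 0) and of the 10 tested genes on either side of it by order along the chromosome (horizontal axis, gene order) in Per/Nr1d_KO minus each other line named by genotype label. Per2 and Cry2 lie below nearly all of their neighbours, and the adjacent gene Tnfrsf9 lies below Per3.

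The counts of the members were little exposed to other genes. No stretch of 50 bases, the read length, in the annotated transcripts of Per1, Per2 or Cry1 occurred in another gene, and none was shared between members. For Per3, 0.217% of such stretches also occurred in another gene, and for Cry2 3.29%. Of the Cry2 exon bases, 4.67% also lie in exons of D930015M05Rik on the opposite strand, and the strand setting of the authors' counting is not given in the sources used here.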

How the data were processed

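Poly-A RNA from 3 MEF lines was sequenced from strand-specific libraries (single-end, 50 bases), 2 independent RNA preparations per line. Reads were aligned by the authors to mm10 (STAR), and featureCounts gave the deposited counts, which are raw whole numbers for each Entrez Gene ID. The authors' own DESeq2 tables of fold changes and p-values between lines were not used.

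Groups came from the genotype labels. Entrez IDs were matched to symbols in RefSeq's GRCm38.p6 table (25275 of 27179, 93.0%), and exon lengths were merged exons of the GENCODE vM21 basic annotation. The 11934 genes whose normalized counts averaged 100 or more entered one quasi-likelihood fit in edgeR 4.0.16 (R 4.3.3) with TMM factors and 3 groups, and p-values were adjusted over all of them by the Benjamini-Hochberg method. The standard error is the log2 fold change divided by the square root of F. The biological coefficient of variation was 0.0393. With 2 libraries per line from separate RNA preparations, p-values measure the spread between these preparations.

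Library totals of 53764390 to 85927236 counts leave counting error small for the members, whose lowest count was 792. The members and lists were chosen with earlier results of these data known, so their counts are descriptions. Named were the members, genes of the lists, the 3 genes of most similar pattern for each member and adjacent genes. The library kit adds no molecular identifiers, so counting error covers reads, not molecules. Alternatives were DESeq2 1.42.0, also at an adjusted p under 1e-22, other scalings and filters, the compared groups alone, a replicate block, leaving out each library, exchanged labels, and subtraction of the chromosome median. The RT-qPCR and Western blot experiments were not analysed here. Some genes of the lists are not reported here by name.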

Additional observations from a re-analysis of the deposited data

How the results depend on the processing

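The direction and the call of each member in each comparison stayed the same in 14 alternatives (DESeq2 with either threshold, median-of-ratios factors, library totals only, both lower filters, a fit of the lines compared only, a block for the replicate number, and leaving out each library in turn). Without 1 library, the log2 fold changes between the Cry-deficient pairs ranged from 0.18 (Cry2) to 1.68 (Cry1), those of Per/Nr1d_KO against the Cry/Per/Nr1d_KO-labelled pair from -2.60 (Cry2) to -0.10 (Cry1), and those against the Cry/Per_KO-labelled pair from -2.82 (Cry2) to -1.26 (Per1). No setting that left out a library changed a count of members called. Whether replicate numbers shared between lines mark a common preparation is not stated in the sources used here. Deviations of same-numbered libraries correlated at -0.21, -0.10 and -0.024, so none was positive. With the replicate block, 2002, 2468 and 3457 genes were called in the 3 comparisons (2006, 2468 and 3457 without it), and Per2 moved to -2.24 and -2.68 in Per/Nr1d_KO. A block with the numbers of the Cry/Per/Nr1d_KO-labelled pair crossed, chosen after the data were seen, gave 2003, 2469 and 3460 calls. Over all genes, 3808, 4576 and 5590 were called without the filter on low counts, 3311, 3912 and 4996 with a mean of at least 10, and 1149, 1803 and 2592 by DESeq2 at an adjusted p under 1e-22.

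Exchanging the labels of the 2 pairs made Per1, Per3 and Cry1 lower in Cry/Per_KO than in Cry/Per/Nr1d_KO (-0.90, -1.17 and -1.66), with 0 members called higher and 3 lower. Against Cry/Per/Nr1d_KO, Per1 (-1.36) and Cry1 (-1.79) then passed the limits in Per/Nr1d_KO, for 5 members called lower, and against Cry/Per_KO they did not (-0.46 and -0.13), leaving 3. Of the list genes, 1 was then higher and 5 lower in Cry/Per_KO. With the labels as given, DESeq2 at an adjusted p under 1e-22 called 3 list genes higher in the Cry/Per_KO-labelled pair in place of 5.

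Subtracting the chromosome median moved Per3 to 1.10, Cry1 to 1.78 and Cry2 to 0.41 between the Cry-deficient pairs. In Per/Nr1d_KO it moved Per2 to -2.51, Per3 to -1.33 and Cry2 to -2.44 against the Cry/Per/Nr1d_KO-labelled pair, and Per2 to -2.94, Per3 to -2.46, Cry1 to -1.89 and Cry2 to -2.84 against the Cry/Per_KO-labelled pair.

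The shares depended on gene length in size, not in the order of lines. For raw counts, the Cry1 share was 40.9% (Cry/Per_KO-labelled), 20.4% (Cry/Per/Nr1d_KO-labelled) and 57.9% (Per/Nr1d_KO), and per coding kilobase 40.3%, 20.0% and 57.3%. The Per1 share was 30.0% and 28.0% of raw counts in the first 2 groups, and 28.0%, 26.4% and 49.2% per coding kilobase. The Per2 share was 34.2% and 44.0% per coding kilobase in the first 2 groups. The Per3 share was 34.6%, 26.9% and 24.2% of raw counts and 37.8%, 29.6% and 27.0% per coding kilobase. Exchanged labels give Cry/Per_KO shares of 29.0% (Per1), 45.0% (Per2), 26.1% (Per3) and 26.9% (Cry1), and Cry/Per/Nr1d_KO shares of 31.1%, 35.3%, 33.6% and 49.8%. With each library alone, Cry1 shares ranged from 26.1% to 66.6% and Per1 shares from 28.8% to 54.8%. The E-box core CANNTG in place of CACGTG gave 4 matches in the 2 windows of Per1, 1 in Cry1, 1 in Cry2 and 0 in Per3, and 72.3% of all windows hold it.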
